A study of Arabidopsis thaliana with 9 samples.

Results

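Across 3 Arabidopsis thaliana lines, iae1, B1798 and iae2, 111 of 22746 probe sets were graded in opposite directions, with the signal of B1798 lying between those of the iae lines on every array. A probe set is the group of short probes that reads 1 transcript, or a few similar ones, on the Affymetrix ATH1 array. The members were chosen by their measured values, taken as log2(signal + 16), where 16 is a constant added so that dim signals do not dominate. Either the 3 iae1 arrays all lay below the 3 B1798 arrays and these below the 3 iae2 arrays, which gave 60 ascending probe sets, or the order was the reverse, which gave 51 descending ones. The means of iae1 and iae2 also had to be 0.8 or more apart on the log2 scale. All 9 arrays entered this choice, so the orders and differences given for the members are a description and no test is attached to them. A further 7 probe sets met the same order and size and were set aside by the definition of the group. They read ECS1, BCAT4, COR15B, MSRB5, AT1G33055, the plastid gene rpoC2 and the mitochondrial gene nad4.

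Each line was measured on 3 arrays. All 3 lines were of the Ler ecotype, and the labels give no allele, no agent and no age beyond a growth stage of 1.0, which they share. The RNA came from the apical meristem bud, cotyledons, hypocotyl and crown, with 1% sucrose supplied, and the series text gives 30 pooled plants without saying for which unit. The iae lines come from genetic work on the maize transposon Ac, which excises more often in them, and the series asks what lies behind their phenotypes. B1798 serves here as the reference because it carries no iae name, but it is not labelled as a control. Nothing in the labels says that the numbered replicates of a line came from separate cultures, so any spread given here may be technical. In these mixed shoot tissues, fewer cells of a type and less RNA per cell cannot be told apart.

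A pair of lines compared with one reference line often share part of their changed genes, which then lie on the same side of the reference. A graded gene does the reverse, since one line has more of the transcript than the reference and the other has less. The genes graded here encode proteins of several kinds. Among them are lipid-transfer proteins, a wax protein of the plant surface, beta-glucosidases that release sugars from conjugates, a defensin-like peptide, a relative of a cold-acclimation protein and membrane transporters.

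Facts of the whole series bear on the members as follows. Signals were scaled so that the trimmed mean was 100.01 on the highest array and 100.009 on the lowest. Arrays of a line correlated across the probe sets that passed the filter on dim signals at 0.983 to 0.99, taking the lowest and highest pair of any line. The 25S rRNA control had signals of 5147, 4979.9 and 4414.7 on the iae1 arrays, 3541.9, 3245.8 and 4068 on the B1798 arrays and 3465.5, 1666 and 3528.2 on the iae2 arrays. Its means therefore ran in the order of the descending members, with B1798 and iae2 overlapping. The GAPDH 3'/5' signal ratio, a sign of how far the RNA was intact, was 2.42 ± 0.0875 (SD, n = 3) in iae1, 2.73 ± 0.422 in B1798 and 1.86 ± 0.126 in iae2. The part of RNA quality in the graded values was not tested. Of the 64 AFFX control probe sets, 0 had the 3 lines apart in either graded order. Of all other probe sets 0.958% were in the ascending and 1.00% in the descending order, so 0 of 64 says little.

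Green tissue was plain on every array. The 4 of 8 green tissue markers with a probe set of their own (RCA, LHCB4.2, SBPASE and PRK) had signals from 732.1 to 3204.8. Of the 6 shoot meristem markers 2 were measured, with CLV3 between 2.2 and 8.3 and LAS between 28.9 and 42.6, so the defining stem cell marker of the labelled meristem bud was close to 0. Among the root markers PYK10, which hypocotyls also express, had signals between 3210.6 and 4395.4, AT5G17820 between 47.5 and 88.1 and EXPA18 between 32.5 and 50.6. EXPA7 had 25.6 to 47.6. The array medians ran from 35.9 to 38.5. PYK10 and AT5G17820 reached the array median on 100% of arrays, EXPA18 on 88.9% and EXPA7 on 22.2%. Of the 4 root markers, 0 stood in either graded order, where 0.958% of all probe sets were ascending and 1.00% descending. A marker counted as measured only if the annotation used gave a probe set that gene alone, and 59.4% of all probe sets had 1 gene. Seed and floral markers had no such entry, so they could not be read here.

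How common the graded pattern was can be read from all 6 orders in which 3 lines can stand without overlap. The order iae1, B1798, iae2 from low to high held for 218 probe sets (0.958% of all), and the order iae2, B1798, iae1 for 228 (1.00%). With the minimum difference of 0.8 these became 63 (0.277%) and 55 (0.242%), of which the members are what remained after the 7 were set aside. B1798 stood in the middle for 446 of the 993 probe sets whose lines did not overlap (44.9%), iae1 for 377 (38%) and iae2 for 170 (17.1%). Among those with the outer lines 0.8 or more apart, the middle line was B1798 in 118 of 267, iae1 in 109 and iae2 in 40. The graded pattern was thus close in number to the pattern in which iae1 departed from B1798 less far than iae2 and in the same direction.

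**Figure D1:**
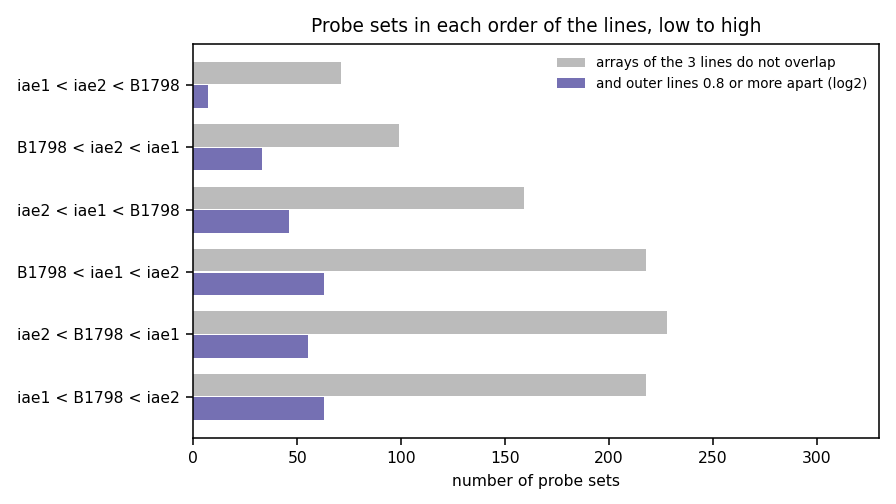
Number of probe sets (horizontal axis) in each of the 6 possible orders of the lines from low to high signal, for the arrays not overlapping (grey) and with the outer lines also 0.8 or more apart on the log2 scale (violet). The graded orders, with B1798 in the middle, held 218 and 228 probe sets, and the order of B1798 below iae1 below iae2 also held 218.

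The members differed between iae1 and iae2 by 0.8045 to 3.3637 on the log2 scale, with a median size of 1.03 among ascending and 1.05 among descending ones. Differences of 1 or more, a doubling on this scale, were shown by 33 ascending and 30 descending members, and of 1.5 or more by 10 and 4. Just inside the minimum lay AT4G00780 (0.80) and an unnamed probe set, 259329_at (0.81), on the ascending side, and AT5G44380 (-0.82) and 266072_at (-0.83) on the descending side. Just outside lay 266001_at (0.79) and 246880_s_at (0.79), AT4G10910 (-0.79) and AT5G57670 (-0.78). The filter on dim signals, which asks that a probe set reach the 40th percentile of an array on at least 3 arrays, was passed by 107 of the 111. The other 4 were dim throughout, namely AT5G37290, of the armadillo repeat type, and 259329_at among ascending members, and AT4G03940 and a probe set reading both AT1G66500 and AT5G43620 among descending ones.

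The rule keeps the 3 arrays of a line together, so their likeness along the pattern is not a finding. Against the B1798 mean, the median ascending member was at -0.41, -0.42 and -0.38 on iae1 replicates 1 to 3 and at 0.66, 0.63 and 0.68 on those of iae2. The median descending member was at 0.44, 0.47 and 0.46 on the iae1 arrays and at -0.55, -0.64 and -0.59 on the iae2 arrays. On the B1798 arrays both medians stayed between -0.03 and 0.02. Within a line the log2 values of the members had a median SD of 0.092 in iae1, 0.0993 in B1798 and 0.0962 in iae2, below the 0.111, 0.122 and 0.109 of all probe sets that passed the filter. The rule, which asks for no overlap, favours a small spread.

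**Figure D2:**
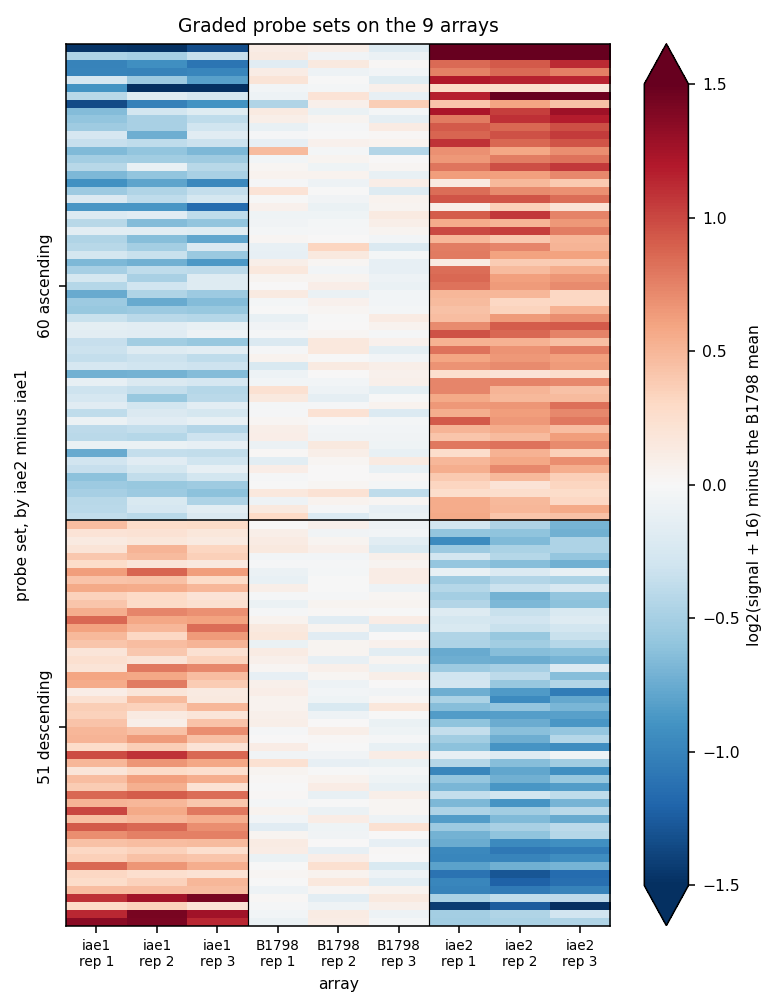
Each row is 1 of the 111 graded probe sets and each column 1 of the 9 arrays. Colour gives log2(signal + 16) minus the B1798 mean, from blue (lower) to red (higher), with values beyond 1.5 in either direction shown at the end of the scale. The 60 ascending probe sets are blue in iae1 and red in iae2, the 51 descending ones the reverse.

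The steps on the 2 sides of B1798 were unequal for most members. The place of the B1798 mean between the iae lines is given here as a percent, with 0% at iae1 and 100% at iae2. It ranged from 12.3% to 86% among ascending members, with a median of 38.5%, and from 13.7% to 88.2% among descending members, with a median of 41.7%. B1798 lay nearer to iae1 for 44 of 60 ascending and 32 of 51 descending members. Its place was under 25% for 14 and 9 and over 75% for 2 and 4. The median step from B1798 to iae1 was 0.39 in size among ascending members and 0.46 among descending ones, and the median step to iae2 was 0.65 and 0.58. Both steps were 0.3 or more for 38 ascending and 33 descending members.

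**Figure D3:**
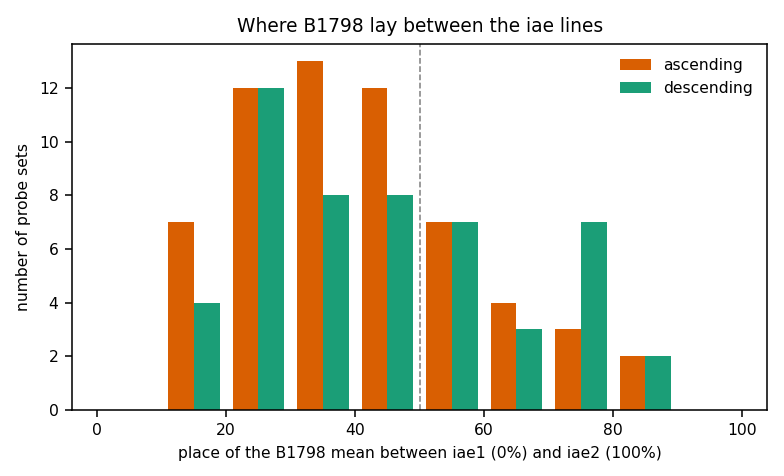
Number of ascending and descending probe sets (vertical axis) by the place of the B1798 mean between the means of iae1 (0%) and iae2 (100%) on the log2 scale, in bins of 10 percentage points. The dashed line marks the midpoint, below which 44 of 60 ascending and 32 of 51 descending probe sets fell.

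The limma fits across all 14404 probe sets that passed the filter use the same contrasts as the choice of members, so their calls are given without being read as support. At an adjusted p below 0.05, 64 of the 107 tested members were called in iae1 against B1798, where 7.21% of all tested probe sets were called. In iae2 against B1798 98 were called, with 17.8% of all tested called, and in iae2 against iae1 all 107, with 19.6% of all tested called. Called in opposite directions against B1798 were 55 of the members and 82 of all tested probe sets (0.569%). Without B1798 replicate 2 the 82 became 46 and the 1039 calls in iae1 against B1798 became 615, without iae1 replicate 3 the latter were 650, and with no filter on dim signals the 82 became 54. The 2 contrasts against B1798 share its 3 arrays.

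A probe annotation with 1 gene was held by 57 of the 111 members (51.4%), against 59.4% of all probe sets. Of these 57, 34 were ascending and 23 descending. Several genes were read by 3 members, and 51 were unnamed in the annotation used. Suffixes marking probes that can detect several transcripts were carried by 9 members, 8 with _s_at and 1 with _x_at. Signals below are given for the 3 replicates of iae1, then B1798, then iae2, or as mean ± SD of these 3 arrays, and each log2 difference is iae2 minus iae1 with its SE.

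The only 2 member genes next to each other in the gene order of assembly TAIR10.1 were AT1G64360 and AT1G64370 on chromosome 1, both ascending. AT1G64360, a gene of unknown function, had signals of 118.8, 152 and 166.8 in iae1, 232.6, 343.9 and 425.3 in B1798 and 437.4, 497.5 and 446.7 in iae2 (log2 difference 1.57 ± 0.14). The 3 B1798 arrays spread widely and the highest of them came close to the lowest iae2 array. Against B1798 the step was 0.48 ± 0.25 (SE) for iae2 and -1.08 ± 0.28 for iae1. The step for iae2 was thus the smaller one, with an SE much like the other. AT1G64370 had 252.5, 220.9 and 197.6 in iae1, 359.2, 354.4 and 341.9 in B1798 and 502.7, 470.9 and 503.6 in iae2 (1.09 ± 0.10). Here the lines were clearly apart, and B1798 lay at 57.2% of the way. The arrays that were high within a line were not the same for these neighbours, since B1798 replicate 3 was the highest for AT1G64360 and the lowest for AT1G64370. Measured genes on either side were not members, with AT1G64355 at 115, 102 and 143 in mean signal (0.28), SEH1H, of the nuclear pore, at 34.3, 45.0 and 35.2 (0.03), and AT1G64380 under the filter (-0.27). The next closest pair, AT1G12010 and AT1G12080, was 11 places apart and graded in opposite directions.

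**Figure D4:**
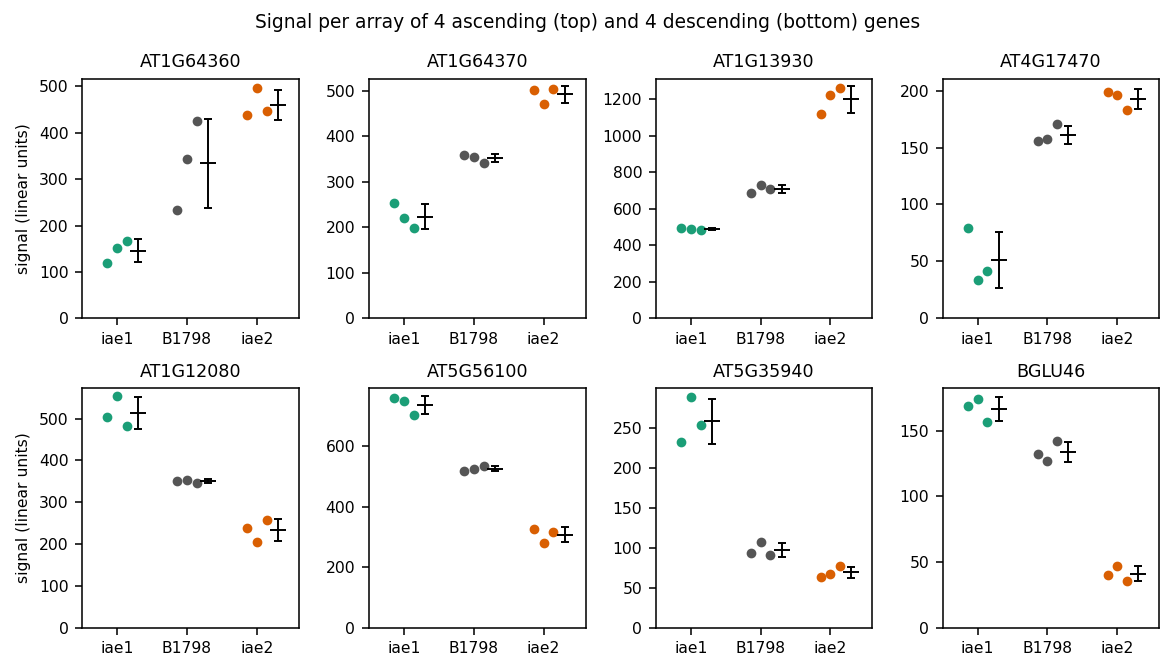
Signal per array (vertical axes, linear units from 0) of AT1G64360, AT1G64370, AT1G13930 and AT4G17470 (ascending, top) and AT1G12080, AT5G56100, AT5G35940 and BGLU46 (descending, bottom) in iae1, B1798 and iae2. Points are the 3 replicates and the bar beside them the mean ± SD. B1798 lies near iae2 for AT4G17470 and AT5G35940, near iae1 for BGLU46 and close to midway for AT1G12080.

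AT1G13930, which encodes a small protein linked to salt tolerance, was ascending with 493.2, 489.9 and 485.3 in iae1, 687.3, 726.6 and 708.4 in B1798 and 1117.9, 1219.4 and 1258.5 in iae2 (1.26 ± 0.05). The replicates within a line were close together, and the iae2 mean was 2.45 times the iae1 mean. A probe set reading both KIN1 and KIN2, cold- and abscisic acid-induced genes, had means of 572 ± 33.9, 707 ± 105 and 1096 ± 69.1 (0.92 ± 0.07). It stands outside the rule for named genes and was picked after its values were seen. The same holds for LHCB4.2 and for all genes below whose values are given as means alone, apart from AT4G00780 and AT5G44380, which lay nearest to the minimum difference.

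AT4G25580, which encodes a relative of the spinach cold-acclimation protein CAP160, was descending with 38.8, 41.2 and 47.9 in iae1, 29.0, 34.5 and 24.6 in B1798 and 6.9, 3.5 and 4.7 in iae2 (-1.48 ± 0.09). B1798 was close to iae1, and the iae2 signals were among the lowest of any member. The difference of AT4G25580 depends on the constant added, at -2.38 with log2(value + 4) and -0.63 with log2(value + 64). AT1G12080, annotated as related to vacuolar calcium-binding proteins, had 504.2, 555 and 481.5, then 351.8, 353.7 and 345.5, then 239.4, 204.6 and 256.9 (-1.09 ± 0.11). B1798 lay at 48.6% of the way, nearly midway. AT5G56100, a glycine-rich or oleosin-type protein gene, had 758.7, 750.6 and 703.3, then 516.7, 525.9 and 535.9, then 324.9, 278.7 and 317.9 (-1.22 ± 0.07), and its lines were again widely apart. AT4G01870, which encodes a protein related to bacterial TolB, had 1138.6, 1220.8 and 1091.2, then 1019.9, 939 and 870.8, then 607.8, 503.2 and 485.1 (-1.09 ± 0.11).

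Members with a known link to lipids or to the plant surface include the following. AT4G22490, of the lipid-transfer and protease inhibitor family, had 231.7, 252 and 220.3 in iae1, 440.4, 422.4 and 481.1 in B1798 and 493.4, 633.5 and 593.6 in iae2 (1.23 ± 0.12). B1798 was near iae2, at 72.3% of the way. A descending gene of the same family, AT3G22570, had 227.2, 234.6 and 224.1, then 119.9, 108.4 and 126.2, then 88.3, 94.2 and 87.1 (-1.21 ± 0.03), with B1798 at 71.9%. These members thus ran in opposite directions, with the iae1 step the larger one in both.

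AT4G13840, also named CER26, acts in the elongation of fatty chains for cuticular wax. Its signals were 74.7, 65.4 and 72 in iae1, 89.5, 85.8 and 93.6 in B1798 and 187.4, 186.6 and 172.5 in iae2 (1.19 ± 0.06), so that iae2 stood far above the other lines. AT5G58980, a neutral ceramidase gene of sphingolipid breakdown, had 8.3, 4.7 and 5.5, then 15.3, 15.8 and 18.4, then 31.6, 30.1 and 35.1 (1.12 ± 0.08), low signals whose difference depends on the constant added. AT4G17470, of a palmitoyl protein thioesterase family, had 79.5, 33.6 and 41.4, then 156.1, 157.2 and 170.5, then 199.3, 196.5 and 182.8 (1.69 ± 0.29). B1798 lay at 86% of the way, the highest place among ascending members, and iae1 replicate 1 was well above the other iae1 arrays. The alpha/beta hydrolase gene AT2G39400 had means of 122 ± 5.8, 169 ± 18.4 and 270 ± 39.8 (1.04 ± 0.12), and AT2G03980, a GDSL-type lipase gene, had 106 ± 3.41, 144 ± 8 and 211 ± 7.91 (0.90 ± 0.04).

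Of 20 probe sets whose gene symbol begins with BGLU, the beta-glucosidases, 13 passed the filter and 2 were members, beside 111 of all 22746 probe sets. These 2 ran in opposite directions. BGLU46, which acts on monolignol glucosides of the lignin pathway, had 168.8, 174 and 156.4 in iae1, 132.5, 127.3 and 142.5 in B1798 and 40.1, 47.3 and 35.8 in iae2 (-1.68 ± 0.09). B1798 was near iae1, at 16.7%. BGLU44, an ascending member, had means of 452 ± 5.9, 667 ± 14.4 and 816 ± 37.4 (0.83 ± 0.04), with B1798 nearer iae2, at 65.9%. EXLB1, of the expansin-like family of the cell wall, was ascending with 52.4 ± 10.3, 79.6 ± 6.59 and 109 ± 11.8 (0.87 ± 0.15). UGT76E2, a sugar-transferring enzyme gene, was descending with 58.8 ± 8.89, 45.2 ± 2.58 and 21.2 ± 6.22 (-1.01 ± 0.17). It was 1 of 47 probe sets with a UGT symbol, of which 27 passed the filter.

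AT5G35940, a mannose-binding lectin gene, was descending with 232.2, 288.3 and 254 in iae1, 94, 107 and 91.2 in B1798 and 63.7, 66.6 and 77.1 in iae2 (-1.69 ± 0.11). AT4G22212, which encodes a defensin-like peptide, was descending with 894.6, 1008.7 and 1128.8, then 415.9, 366 and 454.5, then 291.2, 312.8 and 309.2 (-1.67 ± 0.10). In both the B1798 place was near iae2, at 75.4% and 75.3%, and iae1 stood above the others by a step of 1.27 and 1.26. The terpene synthase gene AT5G48110 had means of 54.8 ± 1.95, 32.7 ± 2.81 and 22.7 ± 2.45 (-0.87 ± 0.06). AT5G44380, of the berberine bridge enzyme-like family, had 219 ± 17.9, 169 ± 10.1 and 118 ± 19.5 (-0.82 ± 0.14). MSRB9, a methionine sulfoxide reductase gene that repairs oxidised methionine, was descending with 860 ± 49.6, 656 ± 51.9 and 464 ± 16.8 (-0.87 ± 0.06). Its relative MSRB5, set aside from the group, stood in the ascending order. Of 4 probe sets with an MSRB symbol, all of which passed the filter, 1 stood in each graded order.

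AT4G01390, which encodes a protein with a TRAF-like domain, was ascending with 4.9, 5.9 and 4.7 in iae1, 29.7, 16.2 and 8.3 in B1798 and 37, 33.1 and 37.4 in iae2 (1.29 ± 0.05). The B1798 arrays ran from just above iae1 to just below iae2, so the place of B1798 was poorly fixed for this dim gene. AT4G00780, another gene of that kind and the member nearest to the minimum difference, was ascending with means of 196 ± 15, 253 ± 52 and 353 ± 21.2 (0.80 ± 0.07). AT1G23130, of the major latex protein and Bet v I family, was ascending with 1023 ± 69, 1729 ± 132 and 2129 ± 200 (1.04 ± 0.10). AT1G16260, a wall-associated receptor kinase-like gene, had 7.5, 8.4 and 11.6, then 15.6, 17.7 and 21.1, then 48.7, 46 and 50.3 (1.36 ± 0.08), and its iae2 arrays stood far above the others. AT5G23750, a remorin gene of plasma membrane domains, had 37.2 ± 1.49, 70.1 ± 3.98 and 85.7 ± 2.32 (0.93 ± 0.03).

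AT5G38030, of the MATE efflux family of membrane transporters, was ascending with means of 31.0 ± 1.43, 35.2 ± 0.971 and 72.5 ± 8.25 (0.91 ± 0.08), and B1798 stood at 13.6%, close to iae1. AT1G68600, of the aluminium-activated malate transporter family, was ascending with 24.8 ± 3.4, 34.4 ± 3.45 and 66.9 ± 5.14 (1.03 ± 0.09). AT3G02690, of a drug and metabolite transporter family, was ascending with 74.2 ± 7.24, 110 ± 16.3 and 161 ± 5.6 (0.98 ± 0.07), with B1798 at 48.8%.

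Enzyme genes of metabolism stood on both sides. AT1G75280, an isoflavone reductase-like gene, had 420.9, 420.7 and 343.3 in iae1, 816.4, 728.4 and 806.7 in B1798 and 841.5, 1005.5 and 906.6 in iae2 (1.19 ± 0.12). Its B1798 arrays came close to those of iae2, at 81.3% of the way. AT1G12010, of the family of 1-aminocyclopropane-1-carboxylate oxidases that make ethylene, had 15.6, 6.7 and 17.3, then 21.2, 21.5 and 22.1, then 52.8, 56.8 and 61.5 (1.34 ± 0.18). The iae1 and B1798 signals were both low, and iae1 replicate 2 was the lowest. MCCB, a subunit of the mitochondrial methylcrotonyl-CoA carboxylase of leucine breakdown, was descending with 1444.4, 1253.2 and 1295.3, then 1201.6, 1080.2 and 1134.2, then 628.8, 636.7 and 642.6 (-1.04 ± 0.06). The iae2 arrays of MCCB agreed closely with each other and lay far below the rest, while iae1 and B1798 nearly met.

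The phosphoglycerate mutase family, whose probe sets on the array were not counted, had a member in each direction. AT1G12850 was ascending with 57.3, 59.1 and 49.1 in iae1, 64.6, 64.8 and 76.7 in B1798 and 142, 159.9 and 125.5 in iae2 (1.15 ± 0.11). AT5G04120 was descending with 143.5, 138.1 and 121.5, then 59.3, 65.2 and 83.1, then 41.9, 44.6 and 48.4 (-1.30 ± 0.08). The larger step was on the iae2 side for the first and on the iae1 side for the second. Among the other ascending enzyme genes, AT1G59960, an aldo-keto reductase gene, had means of 98.5 ± 2.76, 125 ± 18.4 and 207 ± 5.1 (0.96 ± 0.03). AT5G16010, of the steroid reductase type, had 263 ± 2.73, 286 ± 27.7 and 497 ± 19.7 (0.88 ± 0.03) and the lowest B1798 place of any member, 12.3%. AT4G24450, given the symbol PWD in the annotation used and of the glucan water dikinase family, had 22.1 ± 0.586, 26.1 ± 1.55 and 59.9 ± 6.25 (0.99 ± 0.07). AT1G66860, of the glutamine amidotransferase type, was descending with 62.3 ± 5.49, 33.7 ± 0.643 and 25.7 ± 2.06 (-0.91 ± 0.07).

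Chloroplast genes were represented by LHCB4.2, for an antenna protein of photosystem II. It had 1445.8, 1562.1 and 1430.4 in iae1, 1578.3, 1795.6 and 1944.2 in B1798 and 2510.2, 2656.6 and 2871.5 in iae2 (0.85 ± 0.07). The highest iae1 array and the lowest B1798 array were almost level. LHCB4.1, which encodes the same antenna protein, was not graded and had mean signals of 3931, 4079 and 3651 (-0.11), and RCA, SBPASE and PRK, also of the chloroplast, were not graded either. KELP, a transcriptional coactivator gene, was descending with 296 ± 43, 193 ± 11.3 and 140 ± 15.8, as was AT1G18810, related to phytochrome kinase substrates, with 108 ± 13.8, 73.1 ± 10.4 and 48.8 ± 5.15 (-0.93 ± 0.11).

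Several of the largest differences belonged to genes without a known role or to probe sets without a gene name. AT1G67865 was ascending with 224.8, 295.8 and 317.7 in iae1, 398.9, 336.2 and 353.7 in B1798 and 866.6, 762.9 and 894.2 in iae2 (1.55 ± 0.16). AT5G43150 was ascending with 269.4, 334.9 and 269.9, then 373.2, 346.2 and 373.1, then 646.6, 727.6 and 779.2 (1.26 ± 0.13). In both, B1798 lay close above iae1, at 23.9% and 24.9%. AT3G20340 was descending with 203.6, 196.4 and 190.2, then 165.6, 167.8 and 152.2, then 66.7, 57.2 and 63.8 (-1.44 ± 0.06), and only iae2 stood far off. AT2G07140, whose probe set can cross-hybridise, was descending with 93.3, 78.9 and 71.2, then 43.7, 54.7 and 35.2, then 18.4, 20.3 and 21.1 (-1.43 ± 0.10). AT3G15440 was descending with 39.4, 38.5 and 44.7, then 28.6, 20.6 and 32.3, then 11.6, 12.8 and 10.7 (-1.04 ± 0.06), and its lines were set apart at low signals.

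The remaining members with a gene name were these. Ascending were AT4G13200, with means of 162 ± 1.14, 184 ± 5.59 and 365 ± 36.9 (1.09 ± 0.08), and AT1G70900, with 182 ± 20.6, 241 ± 24.2 and 391 ± 29.4 (1.05 ± 0.11). AT2G01870 and AT5G57345 were also ascending, by 0.99 and 0.89. AT3G55890, of the Yippee family, had 10.1 ± 1.05, 17.8 ± 4.78 and 33.6 ± 5.46 (0.92 ± 0.10) and was dim on every iae1 array. A probe set reading both AT1G34060 and AT1G34040 was ascending by 0.98. Descending were AT4G32870, of a lipid-binding domain family, with 146 ± 7.95, 120 ± 9.71 and 66.2 ± 1.42 (-0.98 ± 0.04), and AT5G53710, with 44.1 ± 6.59, 21.5 ± 3.74 and 15.5 ± 1.04 (-0.93 ± 0.09). The dim genes AT5G37290 and AT4G03940 differed by 0.82 and -0.85, and the probe set for AT1G66500 and AT5G43620 by -0.93.

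Among the unnamed probe sets, 245627_at had the largest difference of all members with the constant of 16. Its means were 2.87 ± 1.16 in iae1, 34.9 ± 5.7 in B1798 and 178 ± 17.3 in iae2 (3.36 ± 0.09). It was close to 0 on all iae1 arrays, so its difference and its rank depend on the constant added. Unnamed probe sets were not recalculated with another constant. The next, 257008_at, had 123 ± 7.67, 173 ± 16.4 and 1194 ± 188 (3.11 ± 0.14), with most of the difference on the iae2 side. For 245928_s_at the steps were close to equal, with means of 422 ± 28.2, 866 ± 97.4 and 1701 ± 172 (1.97 ± 0.10). For 246075_at the means were 74.9 ± 0.666, 165 ± 12.7 and 296 ± 12.2 (1.78 ± 0.03). In 260153_at they were 131 ± 28.1, 196 ± 27.7 and 456 ± 10.5 (1.70 ± 0.16). On the descending side 254828_at led, with 2839 ± 282, 1143 ± 80.4 and 812 ± 20 (-1.78 ± 0.09), and its larger step was to iae1. The remaining 18 unnamed ascending members not named by ID differed by 0.8201 to 1.6668, and the 21 descending ones by -0.8348 to -1.316, with B1798 nearer to iae1 in 13 and 14. The other leading unnamed descending ones, 264923_s_at, 264777_at, 266270_at and 252265_at, differed by -1.49, -1.38, -1.33 and -1.33, with the larger step on the iae2 side in each.

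**Figure D5:**
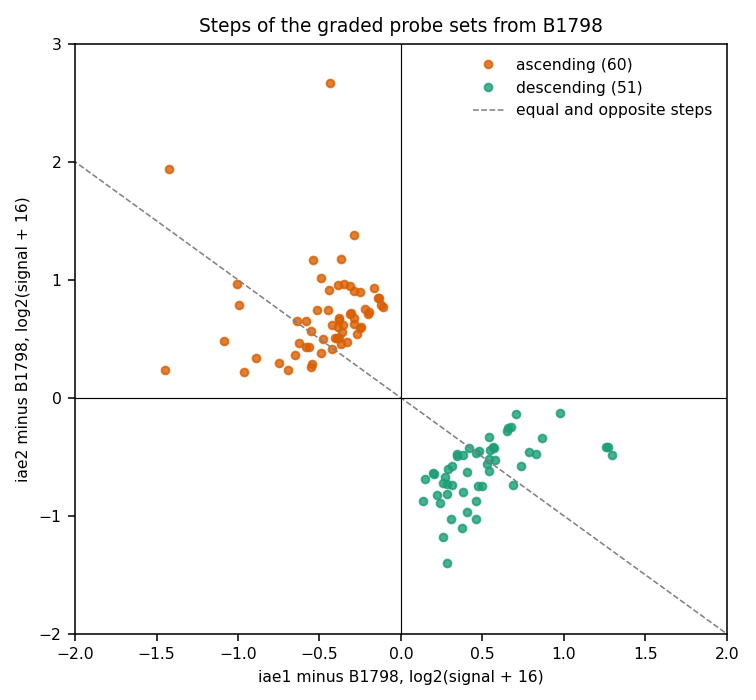
Each point is 1 of the 111 graded probe sets, placed by its step from B1798 to iae1 (horizontal axis) and to iae2 (vertical axis), both as differences of mean log2(signal + 16). The 60 ascending probe sets fill the upper left and the 51 descending ones the lower right by the definition of the group. Points on the dashed line have equal and opposite steps.

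By chromosome, which played no part in the choice, the 57 members with 1 gene were spread over all 5 nuclear chromosomes. Chromosome 4 held 16 of them (28.1%) while it held 14.6% of all probe sets with 1 gene, and chromosome 2 held 4 (7.02%) against 16.5%. The shares were 28.1% against 25.9% on chromosome 1, 12.3% against 20.5% on chromosome 3 and 24.6% against 22.5% on chromosome 5. These shares are a description, and no test was made of them. On chromosome 1, 12 members were ascending and 4 descending, while chromosomes 4 and 5 had 8 of each and 7 of each. Between consecutive member genes on a chromosome the median distance was 309.5 places in the gene order.

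The gene lists for pathways had few measured loci and few members. Of 16 photosystem and antenna loci 3 were measured, with LHCB4.2 the graded one and a median log2 difference of 0.08 between iae2 and iae1. For 4 measured of 20 cold, drought and abscisic acid loci the median was 0.53 (from -0.32 to 1.20), with COR15B in the ascending order. For 4 of 22 glucosinolate loci it was -0.57 (from -1.33 to 0.26), with BCAT4 in the descending order. COR15B and BCAT4 were both set aside from the group. The lists counted only probe sets with 1 gene. KIN1 and KIN2, also on the cold list, share a probe set that was an ascending member (0.92) and was not counted. The 3 measured jasmonate genes (median 0.33) had 0 in either order and ran from -0.79 for THI2.1 to 1.40 for PDF1.2. The 2 genes of dark and sugar starvation (-0.45) also had 0 in either order. So did the single measured genes for salicylate (SAG101, -0.11), the clock (GI, -0.12) and wall loosening (EXPA8, 0.23). Of all probe sets, 0.958% stood in the ascending and 1.00% in the descending order, so 0 among so few genes says little about these pathways. Over all probe sets that passed the filter the median difference was -0.0043, and over all 22746 it was -0.0094.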

How the data were processed

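The values were deposited intensity signals on a linear scale, 1 per probe set and array, for 22810 probe sets on 9 ATH1 arrays. Per the labels' protocols, an oligo-dT primer was used for cDNA and biotin for labelling the cRNA. The summarising algorithm and the genome build are not given in the sources used here. Depth does not apply to arrays, and 3 arrays per line limit the precision. The 64 AFFX controls were left out of the choice of members and of the fits. No normalization was added before the transform log2(value + 16). The members and the gene lists were chosen with earlier results of these data known.

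For the background, limma 3.58.1 in R 4.3.3 fitted a mean per line to 14404 probe sets at or above the 40th percentile of their own array on at least 3 arrays, with an intensity trend and Benjamini-Hochberg adjustment. The script was tested on simulated data. Names and gene order came from the platform annotation and a gene table of TAIR10.1, whose coordinates are not printed. Where a listed gene had several probe sets, the brightest was used. The rule for named genes took the 13 largest differences in each direction among members with 1 gene, 5 example genes, adjacent members, those beside the minimum difference and the 5 largest members without 1 gene in each direction. A planned search of promoter motifs was not run, since promoter sequences were not used here. Alternatives changed the constant, a floor, the normalization, the filter, the minimum difference, the overlap and the fit, and left out each array. Python 3.11.15 ran the other steps, and matplotlib 3.10.9 the plots.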

Additional observations from a re-analysis of the deposited data

Results flagged for a closer look

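All 111 members were flagged because every iae1 array lay on one side of every B1798 array and every iae2 array on the other side. This is the rule that chose them, and the difference between the lines was not tested. Groups of 3 arrays are too small for the search for single arrays far from their line.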

How the results depend on the processing

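The count of graded probe sets depended most on how a difference was defined. Against 60 ascending and 51 descending, there were 30 and 26 with log2(value + 64), 126 and 130 with a minimum difference of 0.5, 33 and 30 with a minimum of 1, and 152 and 110 with the line means in order but arrays allowed to overlap. With log2(value + 4), a floor of 16, equal array medians, quantile normalization or the filter on dim signals, the counts were within 1.5 times of these. With equal array medians 55 of the 60 and 47 of the 51 members were found again. Leaving out each array in turn, which leaves fewer arrays to separate, gave 65 to 84 ascending and 53 to 63 descending. Of the members, 48 or more of the 51 descending and 54 or more of the 60 ascending were found again. Lines that do not overlap stay apart when an array is left out, so a member could be lost only through the minimum difference. With a B1798 array left out, all members were kept by construction. The differences of 27 named members with 1 gene were recalculated 297 times in ways that could move their size. The 27 were the 13 largest in each direction, the examples and the adjacent pair, so most were chosen for large differences. Of the 297, 41 moved by more than the replicate SD, all with another constant or the floor. The sign changed in 0, but members were chosen with no overlap of iae1 and iae2 arrays. A left-out array, another constant or the floor could therefore not reverse it. Only equal array medians and quantile normalization could have done so. Dim members are limited by the constant added. With log2(value + 4) and log2(value + 64), AT1G16260 differed by 2.00 and 0.62, AT4G01390 by 2.12 and 0.53 and AT1G12010 by 1.89 and 0.65. AT3G15440 differed by -1.51 and -0.47.

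Calls of the limma fits numbered 1039 in iae1 against B1798, 2558 in iae2 against B1798 and 2825 between the iae lines. Leaving out each array in turn, they ranged from 615 (without B1798 replicate 2, with 650 without iae1 replicate 3) to 1026, from 1947 to 2519 and from 2010 to 2933. Members called ranged from 51 to 66, from 89 to 99 and at 107, and those called in opposite directions from 39 to 54. Probe sets called in opposite directions numbered 82, against 54 with no filter and 46 to 74 leaving out each array, 46 being without B1798 replicate 2. Same-numbered arrays of different lines deviated together at r between -0.15 and 0.14, over 0.1 in 1 of 9 pairs. Other pairs had r between -0.16 and 0.13. Pairing by number was thus not visible, which does not show that it was absent. With the replicate block, calls numbered 982, 2499 and 2745, and 55 members were called in opposite directions.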
